A study of Mus musculus with 3 samples.

Results

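The 38 Hox genes described here are the listed homeobox genes of the 4 mouse Hox clusters, chosen by their gene symbols and not by any measured value. Per the gene table used for names, the HoxA cluster lies on chromosome 6, HoxB on chromosome 11, HoxC on chromosome 15 and HoxD on chromosome 2. The array carried 43 probes for the 38 genes, and 32 of the 38 genes were bright enough to be tested among 23555 genes and other transcripts.

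Mouse embryos at stage E8.75 were profiled on 3 Agilent arrays. Each array took up RNA in both colours. On every array the Cy3 (green) channel held RNA labelled wild-type and the Cy5 (red) channel RNA labelled Brpf1-deficient, and the arrays are labelled as pairs 1 to 3. The embryos received no treatment, and the labels give neither the strain nor the allele, nor how many embryos went into each RNA. The dyes were not swapped on any of them, which means that genotype and dye cannot be told apart here. The p-values and SEs measure only the spread between these 3 pairs. In the limma fit, the spread of each gene is moderated by that of all genes tested. Each value is the log2 of Cy5 over Cy3 after normalization within each array, so a negative value stands for a dimmer signal in the channel labelled Brpf1-deficient. The authors' deposited table runs the other way (its ratios correlated at -0.802 with those computed here across 39908 probes), so signs here run opposite to that table's.

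Hox genes encode transcription factors that give cells their position along the head-to-tail axis. Within a cluster the genes are numbered by paralogue group in the order in which they lie on the chromosome. Low numbers are switched on early and reach far forward, into the hindbrain, while high numbers are switched on later and only toward the tail. BRPF1 is a scaffold of the KAT6A and KAT6B histone acetyltransferases, and KAT6A is known from mouse mutants as an activator of Hox genes, with shifted vertebral identities in its absence. The comparison therefore bears on whether Hox transcript levels differed between the channels, and whether any difference followed the cluster or the position in it.

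The arrays themselves were alike in quality: 49.4 to 51.9% of probes were well above background in Cy5 and 54.2 to 59.9% in Cy3, and the median unprocessed spot brightness was 234 to 257 in Cy5 and 142.5 to 155.5 in Cy3. Unprocessed Cy5 values were thus brighter as a whole, and only normalized ratios compare the channels. Brpf1 itself was brighter in the channel labelled Brpf1-deficient, at 2.01, 1.43 and 1.06 in pairs 1, 2 and 3 (mean 1.499 ± 0.19, SE, n = 3 pairs, limma adjusted p = 0.0405). Where its probe lies relative to the disrupted part of the gene was not analysed here, and no gene passed the threshold once any pair was left out, so the directions below belong to the channels as labelled.

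Hox genes of nearly every position gave a measurable signal at this stage. All 11 listed genes of paralogue groups 1 to 4 and 10 of the 11 of groups 5 to 8 were well above background in both channels on all 3 arrays, as were 11 of the 16 of groups 9 to 13. The 6 genes left untested were Hoxa6, Hoxb13, Hoxc11, Hoxc12, Hoxc13 and Hoxd12. Hoxc11, Hoxc12, Hoxc13 and Hoxd12 were not well above background in either channel on any array. Hoxa6 and Hoxb13 were above background in Cy3 on 1 array and in Cy5 on none. In HoxC the detected genes thus ended at Hoxc10, while in HoxA and HoxD the genes of group 13, which shape the limb tips, the hindgut and the genital region in later stages, were detected in both channels. RNA was taken from embryos and not from sorted cells, so fewer cells with a transcript and less transcript per cell cannot be told apart.

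**Figure D1:**
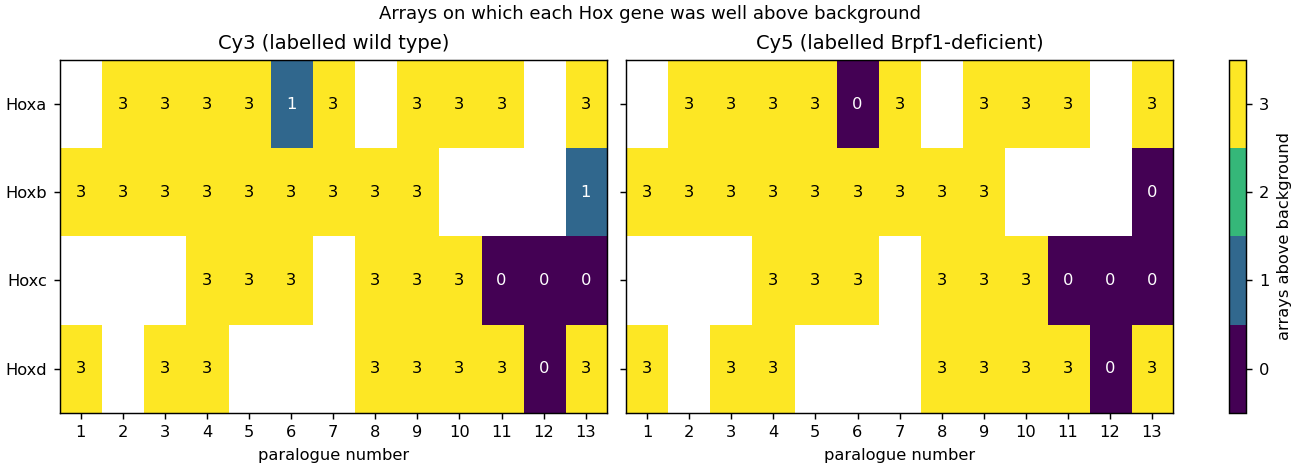
Number of arrays, of 3, on which at least 1 probe of each Hox gene was well above background, by cluster (rows) and paralogue number (columns), with Cy3 on the left and Cy5 on the right. Blank cells hold no listed gene, and the genes at 0 or 1 are the 6 untested ones.

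No Hox gene passed the threshold of 0.05 on the adjusted p. By limma, 0 of the 32 tested genes were called, against a background of 1.38% of all genes tested, and the smallest adjusted p was 0.105, that of Hoxb6. At an unadjusted p below 0.05 there were 8 Hox genes, against 17.3% of all genes. Of these, 6 lay below 0 (Hoxa3, Hoxa5, Hoxb2, Hoxb3, Hoxc4 and Hoxd13), against 9.12% of all genes, and 2 lay above 0 (Hoxb1 and Hoxb6), against 8.23%. The mean log2 ratio was below 0 for 23 of the 32 genes, against 54.4% of all genes, and the median was -0.13, against -0.02 over all genes tested. The sign was the same in all 3 pairs for 12 Hox genes, against 43.4% of all genes. Of the 12, 10 were negative throughout, against 23.8% of all genes, and 2 (Hoxa10 and Hoxb6) were positive throughout, against 19.7%. The 32 means ran from -0.98 for Hoxd13 to 0.54 for Hoxb6.

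**Figure D2:**
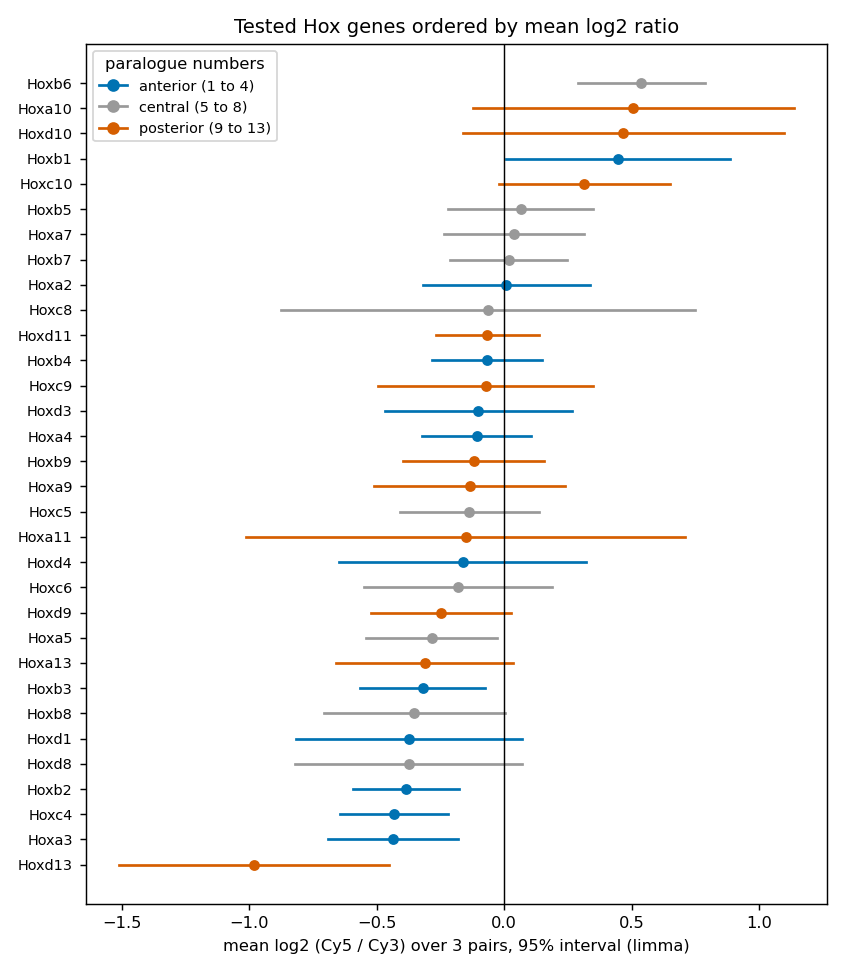
Mean log2 ratio of Cy5 over Cy3 (points) with its 95% interval from limma (lines, not adjusted for the number of genes) for the 32 tested Hox genes, ordered by the mean and coloured by paralogue range. Hoxd13 lies lowest at -0.98 and Hoxb6 highest at 0.54, and 24 of the 32 intervals include 0.

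The pair medians of the clusters overlapped. The median over the tested genes of HoxA was -0.14 (9 genes; -0.40, -0.20 and -0.11 in pairs 1, 2 and 3). HoxB had a median of -0.07 (9 genes; -0.08, 0.04 and -0.16). HoxC had -0.11 (6 genes; -0.50, 0.04 and 0.11, and 0.08 without pair 1) and HoxD -0.21 (8 genes; -0.19, -0.25 and -0.20). HoxD was the cluster with a negative median of similar size in every pair. Of its 8 tested genes, 7 had a mean below 0, against 54.4% of all genes. The HoxD median was -0.17 to -0.22 when 1 pair was left out. Clusters were compared by these values only, without a test.

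**Figure D3:**
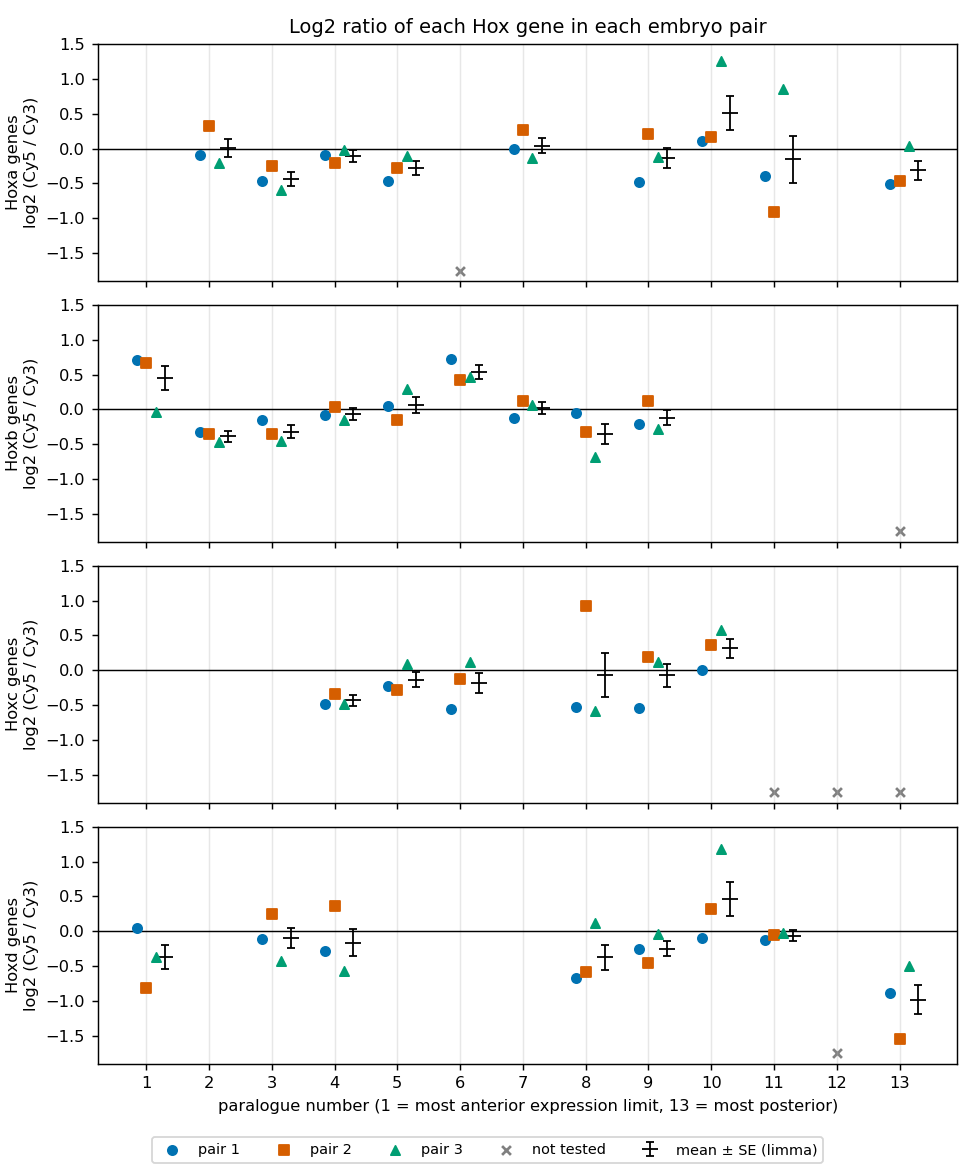
Log2 ratio of Cy5 over Cy3 (vertical axis) for each Hox gene by paralogue number (horizontal axis), 1 panel per cluster. Coloured symbols are pairs 1 to 3, black marks are the mean ± SE from limma, and grey crosses at the bottom stand for untested genes without a value. Groups 1 to 4 lie mostly below 0 apart from Hoxb1, and the genes of group 10 lie above 0 in pair 3.

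The anterior genes, groups 1 to 4, pattern the hindbrain, the pharyngeal arches and the neck. Of their means, 9 of 11 were below 0, against 54.4% of all genes. The median was -0.16, with -0.12, -0.20 and -0.43 in pairs 1, 2 and 3. In pair 3 none of the 11 genes lay above 0, against 11509 of all 23555 genes. The steadiest of them was Hoxb2, a gene of the hindbrain and of the nerve cells that arise there. Hoxb2 had -0.33, -0.36 and -0.47 in pairs 1, 2 and 3 (mean -0.39 ± 0.08, SE, n = 3, limma adjusted p = 0.139). All pairs were thus brighter in Cy3, by 1.31-fold in the mean. Hoxc4, the most anterior gene of HoxC, which acts on the neck and upper chest vertebrae, had -0.48, -0.33 and -0.48 (mean -0.43 ± 0.08, adjusted p = 0.118). Its pairs spread nearly as narrowly as those of Hoxb2. Hoxa3, needed for the thymus, the parathyroid and the throat cartilage, had -0.47, -0.25 and -0.59 by its brighter probe (mean -0.44 ± 0.10, limma adjusted p = 0.16). A dimmer probe, named Hoxa3 only in the authors' deposited table, gave -0.25, 0.16 and -0.34 (mean -0.14). That probe entered neither the Hoxa3 fit nor the mean of probes.

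The probes of group 3 genes did not all order the pairs alike. Hoxb3, a gene of the posterior hindbrain, had -0.15, -0.36 and -0.46 by its brighter probe (mean -0.32 ± 0.10, SE, adjusted p = 0.219). The dimmer Hoxb3 probe gave 0.24, 0.65 and -0.08, and the authors' deposited table lists a Hoxd3 transcript among the matches of that probe. Hoxd3 itself, by a probe of its own, had -0.12, 0.24 and -0.43, with pair 2 highest and pair 3 lowest, an order shared with the dimmer Hoxb3 probe and with Hoxa3. With the mean over both Hoxb3 probes the ratio was -0.03. Hoxd4, which helps to shape the second neck vertebra, had -0.28, 0.36 and -0.57 (mean -0.16, 95% interval -0.65 to 0.32). Pair 2 was again the high one. In the gene annotation the models of Hoxd3 and Hoxd4 overlap, as do those of Hoxb3 and Hoxb4, of Hoxd10 and Hoxd11, and of Hoxa3 with each of Hoxa4, Hoxa5 and Hoxa6, and whether a probe lies in a shared stretch was not analysed here.

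Hoxb1, which gives the fourth hindbrain segment its identity, was the anterior gene with the largest positive ratio. Its unprocessed spot intensity was 2089, 2199 and 1897 for pairs 1, 2 and 3 in Cy3, with 5863, 3914 and 2928 in Cy5. The log2 ratio was 0.71, 0.66 and -0.04 (mean 0.45 ± 0.17, SE, 95% interval 0.01 to 0.88, adjusted p = 0.284). Pairs 1 and 2 were high and pair 3 was near 0. After normalization between arrays, Cy5 of pair 3 fell short of the mean of pairs 1 and 2 by 0.65 on the log2 scale (a difference of -0.65), while Cy3 differed by 0.08. Hoxd1, the group 1 gene of HoxD, had 0.05, -0.81 and -0.37 (mean -0.37 ± 0.17, adjusted p = 0.343), so Hoxb1 and Hoxd1 lay on opposite sides of 0 in their means. Hoxa2, which sets the identity of the second pharyngeal arch, had -0.10, 0.33 and -0.21 (mean 0.01 ± 0.13, 95% interval -0.32 to 0.34). The remaining anterior genes were Hoxa4 and Hoxb4, with means of -0.11 and -0.07 and intervals from -0.32 to 0.10 and from -0.28 to 0.15.

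The RefSeq promoter table (250 bases before to 50 after a transcript start, build GRCm38.p6) held entries for 22 of the 38 genes, which is too few for a comparison of base composition over the set. The promoters of Hoxc4 and Hoxb1 are shown because Hoxc4 was among the evenest of the anterior genes and Hoxb1 had the largest positive ratio of them, and that of Hoxd13 because its ratio was the lowest of all. They lie on the plus strand at chr15:103034145-103034444 (Hoxc4), chr11:96365508-96365807 (Hoxb1) and chr2:74667975-74668274 (Hoxd13). Motifs of 3 kinds were searched on both strands at any position, and matches are in capitals. TATAAA is the sequence of the TATA box. TGATNNAT is a sequence bound by pairs of HOX and PBX proteins, and AGGTCA is the half-site bound by retinoic acid receptors.
Hoxc4: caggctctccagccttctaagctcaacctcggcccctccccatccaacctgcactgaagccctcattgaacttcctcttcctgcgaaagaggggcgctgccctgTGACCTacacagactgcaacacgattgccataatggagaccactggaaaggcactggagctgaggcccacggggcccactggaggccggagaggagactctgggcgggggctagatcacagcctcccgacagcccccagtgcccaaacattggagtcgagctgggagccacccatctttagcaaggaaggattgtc
Hoxb1: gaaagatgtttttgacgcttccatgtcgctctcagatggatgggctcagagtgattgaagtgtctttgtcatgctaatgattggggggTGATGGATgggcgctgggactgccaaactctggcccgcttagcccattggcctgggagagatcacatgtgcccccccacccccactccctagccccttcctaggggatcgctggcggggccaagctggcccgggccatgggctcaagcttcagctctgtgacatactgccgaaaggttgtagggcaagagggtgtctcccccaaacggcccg
Hoxd13: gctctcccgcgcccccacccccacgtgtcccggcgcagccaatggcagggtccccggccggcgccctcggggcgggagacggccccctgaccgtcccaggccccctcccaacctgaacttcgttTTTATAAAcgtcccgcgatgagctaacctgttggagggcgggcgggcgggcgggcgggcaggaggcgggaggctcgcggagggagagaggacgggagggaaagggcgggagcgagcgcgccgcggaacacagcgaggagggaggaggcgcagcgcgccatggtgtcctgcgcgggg
The Hoxc4 promoter holds 1 AGGTCA on the opposite strand at -146 to -141, where 1 is the first transcribed base. AGGTCA is found in 16.2% of the 32544 promoters of the table. The Hoxb1 promoter holds 1 TGATNNAT on its own strand at -162 to -155, a motif of 8.79% of all promoters. The Hoxd13 promoter holds TATAAA on both strands in matches that overlap, at -126 to -121 and at -124 to -119, and 13.6% of all promoters hold TATAAA. A match is one of sequence only, and whether these act as a TATA box was not tested.

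The central genes, groups 5 to 8, act on the chest vertebrae and the spinal cord at that height. Of these genes, 10 were tested and 6 means were below 0, against 54.4% of all genes (median -0.10, and 0.03 without pair 1). Hoxb6, a gene of the trunk mesoderm and spinal cord, had the highest mean of all Hox genes. In Cy3 its unprocessed intensity was 3101, 2946 and 2353, and in Cy5 it was 8970, 4416 and 5231. The log2 ratio was 0.73, 0.42 and 0.46 in pairs 1, 2 and 3 (mean 0.54 ± 0.10, SE, n = 3, limma adjusted p = 0.105). All 3 pairs were brighter in Cy5, by 1.45-fold in the mean. The genes beside it in HoxB did not share this: Hoxb5 had 0.05, -0.15 and 0.29, and Hoxb7 had -0.13, 0.12 and 0.07, with means of 0.06 and 0.02 and intervals from -0.22 to 0.35 and from -0.21 to 0.25. The difference between Hoxb6 and its neighbours was not tested.

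Hoxa5, needed for the lung and the lower neck vertebrae, had -0.47, -0.28 and -0.11 (mean -0.29 ± 0.10, SE, adjusted p = 0.261). It was dimmer in Cy5 in every pair, with the smallest difference in pair 3. Hoxb8, a gene of the trunk and spinal cord, had -0.05, -0.32 and -0.69 (mean -0.35 ± 0.14, adjusted p = 0.29), and here pair 3 had the largest difference. Hoxc8, a gene of the chest vertebrae and of motor neurons, had the widest spread of this range, with -0.53, 0.92 and -0.58 (mean -0.06, 95% interval -0.88 to 0.75). Hoxd8 had -0.66, -0.58 and 0.12 (mean -0.38 ± 0.17, adjusted p = 0.342). In group 8 the genes of HoxB, HoxC and HoxD therefore each had another order of pairs. Hoxa7, Hoxc5 and Hoxc6 had means of 0.04, -0.14 and -0.18, each with an interval that includes 0.

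The posterior genes, groups 9 to 13, had the widest range. The 4 genes of group 9, which act on the lower chest and the upper limb, had means between -0.25 and -0.07. Hoxd9 had -0.25, -0.46 and -0.04 (mean -0.25 ± 0.11, SE, adjusted p = 0.322), the only gene of the group with 1 sign in all pairs. Hoxb9, the most posterior tested gene of HoxB, had -0.20, 0.12 and -0.28 (mean -0.12 ± 0.11, 95% interval -0.40 to 0.16). Hoxc9 had -0.54, 0.19 and 0.12. Hoxa9 had -0.49, 0.20 and -0.13 by its brighter probe and -0.29, 0.86 and 0.16 by the other. Both Hoxa9 probes were lowest in pair 1 and highest in pair 2, and their means, -0.14 and 0.24, lay on opposite sides of 0.

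Hoxd13, the last gene of HoxD, had the lowest ratio of all tested Hox genes. For pairs 1, 2 and 3, Cy3 read 574, 657 and 417 before processing and Cy5 read 518, 292 and 465, above background on all arrays. Cy5 was thus the dimmer channel on arrays 1 and 2 even before normalization, although the median spot was brighter in Cy5. The log2 ratio was -0.89, -1.55 and -0.50 (mean -0.98 ± 0.21, SE, n = 3, 95% interval -1.51 to -0.45, limma adjusted p = 0.139), a 1.98-fold brighter signal in Cy3. The authors' deposited table lists Hoxd13 at 1.25 (adjusted p = 0.426), brighter in Cy3 as well once its direction is turned. Leaving out 1 pair gave means from -1.22 to -0.70, and over the other alternative settings the mean ran from -1.40 to -0.98.

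Hoxa13, the group 13 gene of HoxA, had -0.52, -0.46 and 0.04 (mean -0.31 ± 0.14, SE, adjusted p = 0.321). Its second probe gave -0.48, -0.48 and 0.14, so both probes were dimmer in Cy5 in pairs 1 and 2 and near 0 in pair 3. Hoxb13, too close to background to be tested, read 85.5, 168 and 103 before processing in Cy3, with 113.5, 136 and 104 in Cy5. It was above background on 1 array in Cy3. Hoxd11, between the group 10 and group 13 genes of HoxD, had -0.12, -0.05 and -0.03 by its brighter probe (mean -0.07, 95% interval -0.27 to 0.14). Its dimmer probe, above background on 2 arrays in Cy3 and 1 in Cy5, gave -0.38, -0.26 and 0.26.

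The genes of groups 10 and 11 act on the lower back, the hind limb and, in the adult, the uterus. Of the 5 tested genes of these groups, Hoxa10, Hoxa11 and Hoxd10 differed widely between the pairs. Hoxc10 had an SD over the pairs of 0.29, equal to the Hox median. Hoxd11, at 0.051 by its brighter probe, had the smallest of all tested Hox genes, while its dimmer probe changed sign between the pairs. The groups are singled out after their values were seen. Before processing, Hoxa10 read 1004, 841 and 361 in Cy3, against 1797, 1149 and 1398 in Cy5, with log2 ratios of 0.10, 0.16 and 1.25 (mean 0.51 ± 0.25, SE, adjusted p = 0.357). Hoxd10 read 493, 478 and 246 in Cy3, against 763, 748 and 896 in Cy5, with log2 ratios of -0.09, 0.32 and 1.17 (mean 0.47 ± 0.25, adjusted p = 0.385). Pair 3 was the high one for both, and the low value on that array was that of Cy3.

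Hoxc10, the most posterior tested gene of HoxC, had -0.0018, 0.37 and 0.58 (mean 0.31 ± 0.13, adjusted p = 0.31). Hoxa11 had -0.40, -0.91 and 0.85, which spans 0 widely (mean -0.15, 95% interval -1.01 to 0.71). Hoxa11os, the transcript named as the opposite strand of Hoxa11, followed the same order with -0.08, -0.29 and 0.83. In pair 3, 4 of the 5 tested genes of groups 10 and 11 had a log2 ratio above 0.5, against 4.58% of all genes tested, and none of the other 27 Hox genes did. Without pair 3 the means were 0.13 for Hoxa10, 0.11 for Hoxd10, 0.18 for Hoxc10 and -0.65 for Hoxa11. The median SD over the pairs was 0.65 for these 5 genes, against 0.29 over all tested Hox genes and 0.16 over all genes.

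With each channel normalized between arrays, Cy3 of pair 3 lay below the mean Cy3 of pairs 1 and 2 by 1.05 for Hoxa10, 1.04 for Hoxa11, 0.76 for Hoxd10, 0.58 for Hoxa13 and 0.34 for Hoxc10 on the log2 scale. In Cy5 the same difference was 0.06, 0.47, 0.30, -0.05 and 0.06. By its brighter probe, Hoxd11 was the exception among the posterior genes, higher in Cy3 of pair 3 by 0.13 (0.19 in Cy5). Over all posterior Hox genes, 10 of 11 were lower in Cy3 of pair 3, against 12883 of all 23555 genes. Their median was -0.38, against -0.02 over all genes. The median of the 11 anterior genes was 0.01 in Cy3 and -0.19 in Cy5. In pair 3 the high ratios of Hoxa10, Hoxa11, Hoxd10 and Hoxc10 thus came with low Cy3 values, while the anterior genes had their lower median in Cy5.

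**Figure D4:**
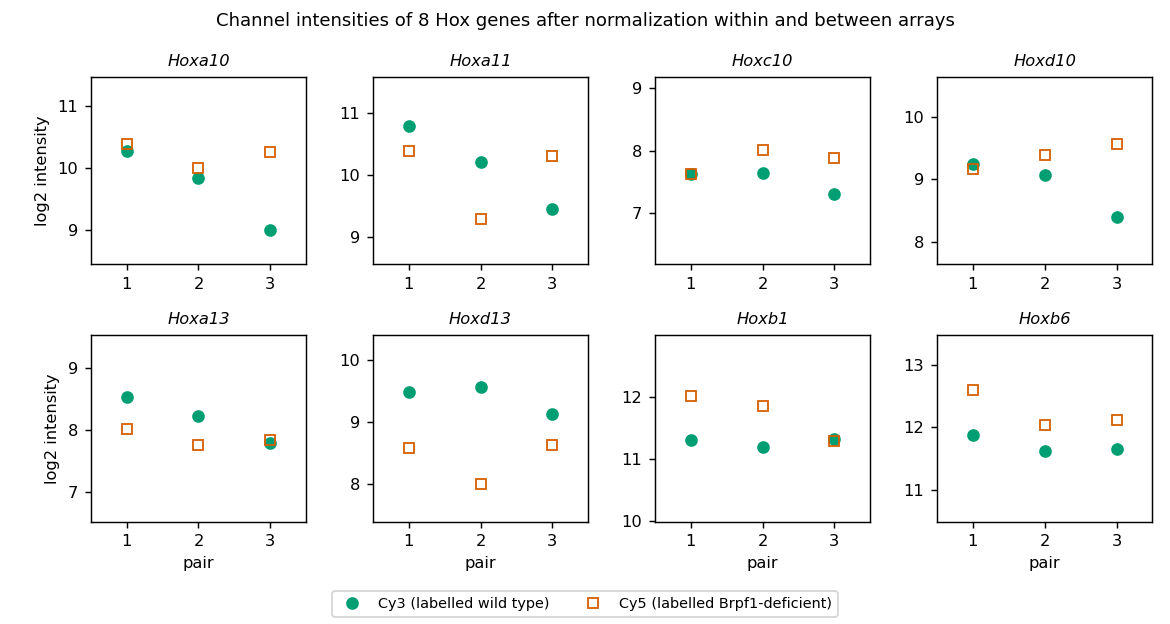
Log2 intensity of 8 Hox genes in each pair after normalization within and between arrays, with Cy3 (labelled wild type) as filled green circles and Cy5 (labelled Brpf1-deficient) as open orange squares. Each panel spans 3 log2 units, and levels are comparable within a panel only. The Cy3 values of Hoxa10, Hoxa11 and Hoxd10 are lowest in pair 3, and Hoxd13 lies lower in Cy5 in every pair.

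Markers of other tissues differed between the pairs as well. Uterine decidua, the maternal tissue around the embryo, expresses Hoxa10 and Hoxa11 itself. Of 7 decidua and placenta markers 6 were tested, and their median ratio was -0.36, -0.96 and 0.49 in pairs 1, 2 and 3. All 6 were dimmer in Cy3 of pair 3 than in the mean Cy3 of pairs 1 and 2, against 12883 of all 23555 genes. In the other lists given below, this held for between 1 of 5 hindbrain markers and all 9 Hox cofactors. The summed intensity of the 6 markers in Cy3 was 50369, 54280 and 28343 over pairs 1, 2 and 3, and in Cy5 it was 33344, 15332 and 44216. Hoxa11 had its lowest Cy3 level in pair 3 (9.46 on the log2 scale, with 10.79 and 10.21 in pairs 1 and 2). Its lowest Cy5 level was in pair 2 (9.30, with 10.38 and 10.31 in pairs 1 and 3). The other tested genes of groups 10 and 11 were divided in Cy5. Hoxa10 (10.01) and Hoxd11 (7.91) were lowest in pair 2, while Hoxd10 (9.16) and Hoxc10 (7.63) were lowest in pair 1. Prl8a2, a decidual prolactin family gene, had -0.74, -3.55 and 0.60, and Tpbpa, a marker of the placental spongy layer, was not above background on any array. The part of such tissue in the Hox ratios was not tested.

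Markers of the tail bud and the presomitic mesoderm beside it were low in Cy5 of pair 3. Of 9 markers 8 were tested, with medians of -0.05, 0.05 and -0.59 in pairs 1, 2 and 3. In pair 3 none of the 8 lay above 0, against 11509 of all 23555 genes. T, the brachyury gene, had -0.13, -0.46 and -1.10, and Tbx6, a gene of the presomitic mesoderm, -0.07, -0.02 and -1.27. The summed intensity of the list was 37800 to 45323 in Cy3 and 29841 to 43341 in Cy5, and Wnt3a was not above background on any array. Hindbrain markers had a median of 0.44, 0.02 and -0.10, with sums of 7757 to 8276 in Cy3 and 7195 to 10216 in Cy5. Their part in the ratios of the anterior Hox genes was not tested.

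Markers of the yolk sac and of blood lay on the other side of 0 from most Hox genes. All 9 yolk sac endoderm markers had a mean above 0 (median 0.43, with 0.20, 0.46 and 0.55 in pairs 1, 2 and 3), against 10744 of all 23555 genes. By limma, 6 of them had an unadjusted p below 0.05, against 8.23% of all genes above 0, and none passed the adjusted threshold. The summed intensity of the 9 markers was 512495 to 816864 in Cy3 and 753903 to 1069353 in Cy5. Of 7 markers of primitive red blood cells, 6 had a mean above 0 (median 0.11; -0.47, 0.77 and 0.14 in the pairs), with sums of 240123 to 888934 in Cy3 and 543575 to 915191 in Cy5. Hbb-bh1, an embryonic globin gene, was higher in Cy5 at 0.83, 1.58 and 1.42 (mean 1.28 ± 0.16, SE, n = 3 pairs, limma adjusted p = 0.0418). Of 7 forebrain and midbrain markers 6 were tested and none passed, with a median of -0.03 and sums of 18983 to 30087 in Cy3 and 19309 to 31549 in Cy5. The part of these tissues in the Hox ratios was not tested.

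**Figure D5:**
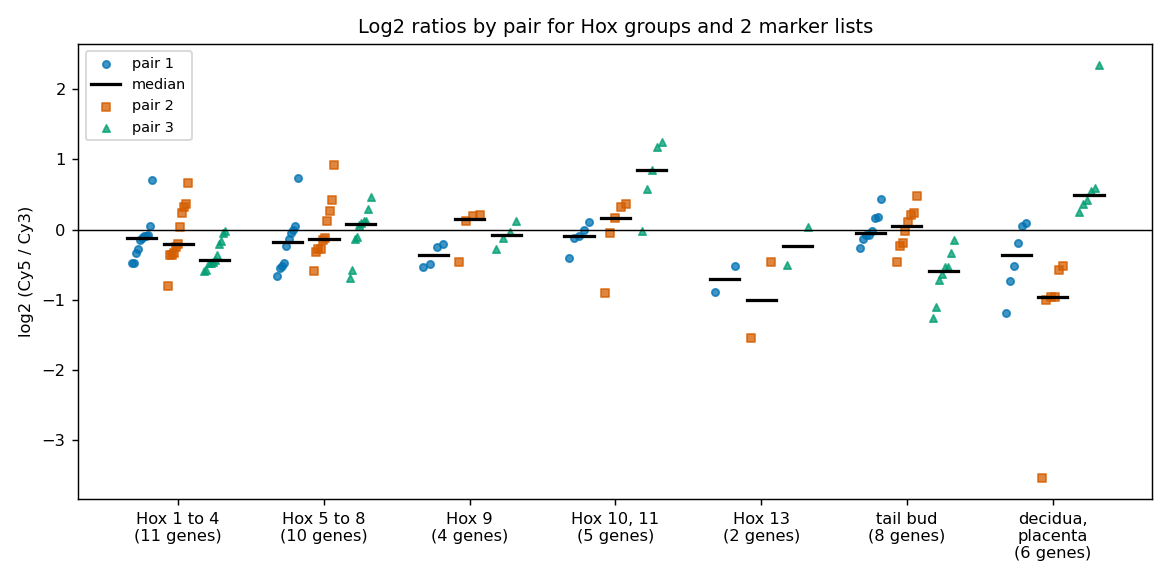
Log2 ratio of Cy5 over Cy3 of single genes (symbols) by pair for 5 groups of Hox genes and for the tail bud and the decidua and placenta markers, with the median of each group and pair as a black bar. In pair 3 the genes of groups 10 and 11 have a median of 0.85 and the decidua and placenta markers 0.49, while the anterior Hox genes are at -0.43 and the tail bud markers at -0.59.

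Along the clusters, the relation of ratio to paralogue number differed in sign between the pairs and was weak in pairs 1 and 2. Over the 32 tested genes Spearman's rho between paralogue number and log2 ratio was -0.266 in pair 1, -0.0927 in pair 2 and 0.442 in pair 3, and 0.136 for the mean of the pairs. Pearson's r was -0.365, -0.202 and 0.421 in the pairs and -0.02 for their mean, so for the mean the measures differ in sign. These are descriptions across genes that share an array and its normalization. Between pairs, the ratios of the 32 genes correlated at 0.486 (pairs 1 and 2), 0.282 (pairs 1 and 3) and 0.125 (pairs 2 and 3), against 0.409, 0.335 and 0.152 over all genes.

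Partners and regulators of Hox genes passed the threshold in 1 case, Brpf1. Of 9 cofactors of the PBX, MEIS and PREP type, which bind DNA together with HOX proteins, none passed the threshold. Of their means, with a median of -0.08, 7 were below 0, against 54.4% of all genes. The lowest was Pbx4, with -0.46, -0.45 and -0.62 in pairs 1, 2 and 3 (mean -0.51 ± 0.08, SE, adjusted p = 0.0815). Of 12 upstream regulators none passed, with a median of -0.05. The caudal gene Cdx1, an activator of central Hox genes, had 0.40, -0.67 and -1.09 (mean -0.46 ± 0.29, adjusted p = 0.45). Aldh1a2, which makes the retinoic acid that switches on anterior Hox genes, had 0.63, 0.01 and -0.18. The 12 genes had a median of 0.13, 0.01 and -0.19 in pairs 1, 2 and 3. Of the 12, 10, 7 and 2 lay above 0 in these pairs, against 11112, 10651 and 11509 of all 23555 genes.

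Of 22 chromatin regulators of Hox genes 21 were tested, and Brpf1 alone passed, as given above. Of the 21 means, 17 were below 0, against 54.4% of all genes. In all 3 pairs 11 of the genes were negative, against 23.8% of all genes, and 3 were positive, against 19.7%. Meaf6 had -0.26, -0.35 and -0.33 (mean -0.32, limma adjusted p = 0.178). Ing4 had -0.30, -0.16 and -0.44 (mean -0.30, limma adjusted p = 0.225). Polycomb proteins keep Hox genes silent outside their domain, and Bmi1, a subunit of the complex that ubiquitinates histone H2A, had -0.75, -0.71 and -0.45 (mean -0.64 ± 0.10, SE, adjusted p = 0.0654). Ezh2, Eed and Suz12, the core of the histone H3 methylating complex, had means of -0.13, -0.01 and -0.08, and the acetyltransferases Kat6a, Kat6b and Kat7 had -0.12, 0.10 and -0.10. Of 14 genes picked as neighbours of the clusters and their noncoding transcripts 9 were tested and none passed. Of the 9 means, with a median of -0.11, 8 were below 0, against 54.4% of all genes. Evx1, which lies beyond Hoxa13 and is expressed in the tail end, had 0.08, -0.22 and -0.67.

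The authors' deposited table lists 31 of the 43 Hox probes, all 31 with the sign opposite to the mean ratio here, as its direction requires. Its smallest adjusted p for a Hox probe is 0.357, that of Hoxb6, and its smallest for any probe is 0.264.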

How the data were processed

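The 3 scanner files hold 55681 probes without controls, read with Feature Extraction 10.7.3.1 per the file headers. The intensity values used are, per the file headers, linear median brightness of spot and local background. Processed signals and log10 ratios of the scanner software stand beside them, per the file headers. Per the labels, 350 ng of total RNA was amplified in 1 round. The authors' deposited table lists log2 ratios, p-values and scores of 40000 probes. Limma is named in the submitters' processing notes, with version and settings not given in the sources used here.

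Background was corrected by normexp (offset 50) and log2 ratios were normalized within arrays by loess (span 0.3; controls and outliers had weight 0). Spots of 1 probe were averaged. Probes well above background in 1 channel on at least 2 arrays, in at least 0.5 of their spots, were kept (31603), and the brightest stood for each gene. Names came from RefSeq accessions (27656 of 29123 matched, GRCm38.p6; the array is annotated on mm9). Mean ratios of the 3 pairs were tested against 0 in limma 3.58.1 (R 4.3.3, two-sided, Benjamini-Hochberg over 23555 genes), and the p-values and SEs above are from that fit, save those given for the authors' deposited table. Channel levels were set between arrays by Aquantile. No ratio of a tested Hox gene was missing or saturated. The members and lists were chosen with earlier results of these data known. Genes were given in full if their unadjusted p was below 0.05, their mean beyond 0.5, or they lay at a cluster's tested end; others are named for their position or spread. Apart from list members given only in counts, 1 further gene is not reported here. Array number limits the precision. Alternatives are other background corrections, normalizations, filters, probe rules and moderation, and leaving out each pair.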

Additional observations from a re-analysis of the deposited data

How the results depend on the processing

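Under 10 alternative settings and 3 fits without 1 pair, 0 Hox genes passed the threshold in limma each time (smallest adjusted p from 0.0571 to 0.401), and 6 to 11 had an unadjusted p below 0.05, while the calls over all genes went from 326 to 0 (processed signals, loess span 0.02, bright genes left out, or any pair left out), 193 (offset 16), 201 (mean of probes), 651 (median centring), 399 (no filter) and 427 (moderation with trend). Of the 32 tested Hox genes, 21 kept their sign throughout. With median centring the median of the Hox genes moved to -0.24, that of HoxB to -0.17 and that of HoxD to -0.31, and Hoxa2 (-0.14), Hoxa7 (-0.0803), Hoxb5 (-0.0683) and Hoxb7 (-0.12) turned negative. Without a filter the HoxD median was -0.16. Hoxa2 was -0.0032 without background correction and -0.0414 with processed signals, and Hoxa9 was 0.0542 as the mean of its probes. Without pair 1 the HoxC median turned from -0.11 to 0.08 and that of the central genes from -0.10 to 0.03. When 1 pair was left out, the median of the Hox genes ran from -0.18 to -0.0694 (-0.0694 without pair 1) and that of HoxD from -0.22 to -0.17. The following means changed sign among those fits: Hoxa2 (-0.15 to 0.12), Hoxa7 (-0.0753 to 0.13), Hoxa9 (-0.31 to 0.0388), Hoxa11 (-0.65 to 0.23), Hoxb5 (-0.0505 to 0.17), Hoxb7 (-0.0316 to 0.091), Hoxc6 (-0.33 to 0.001), Hoxc8 (-0.55 to 0.20), Hoxc9 (-0.21 to 0.16), Hoxd3 (-0.27 to 0.0635) and Hoxd4 (-0.43 to 0.0417). The cause was not tested. Each ratio already compares the members of 1 pair. The fit of the 3 ratios is thus paired by its design.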
